A study of Mus musculus with 8 samples.

Results

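Translation initiation factors are the proteins that bring the small ribosomal subunit, the initiator tRNA and the start codon of an mRNA together. The genes described here are those whose name on the array begins with Eif and a digit from 1 to 6. That rule used names only and found 123 of the 41174 probes, under 53 gene names. Of these, 107 probes under 49 names measure initiation factors and their direct regulators. The other 16 probes, under the old names Eif2c1, Eif2c2, Eif2c3 and Eif2c4, measure Ago1, Ago2, Ago3 and Ago4, the Argonaute proteins of small RNA silencing, which are not initiation factors. The factor eIF6 is annotated on this array under another name (Itgb4bp), so the rule found no eIF6 probe. Many eIF3 names are old: Eif3s10 is now Eif3a, Eif3s9 is Eif3b, Eif3s8 is Eif3c, Eif3s7 is Eif3d, Eif3s6 is Eif3e, Eif3s5 is Eif3f, Eif3s4 is Eif3g, Eif3s3 is Eif3h, Eif3s2 is Eif3i, Eif3s1 is Eif3j1, Eif3s12 is Eif3k and Eif3s6ip is Eif3l. The array names are kept below, with the present name where it helps. Counts of initiation factor probes below take in the Argonaute probes too, unless these are said to be left out.

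The series measured RNA of haematopoietic stem cells (HSC) on 8 one-colour arrays and compared cells lacking E47, a transcription factor made from the gene Tcf3 (KO), with wild-type cells (WT). All groups are donor-derived mouse HSC sorted by flow cytometry from recipient mice, so both genotypes had been transplanted. The 4 groups, of 2 arrays each, are WT cells from primary recipients, KO cells from primary recipients, WT cells from secondary recipients (mice of a second round of transplantation) and KO cells from secondary recipients. RNA was amplified by a PCR of all cDNA before Cy3 labelling. Strain, age, time after transplantation, the sort markers, the allele behind the knockout and any pooling of mice could not be learned from the labels or files. The design text speaks of 2 replicates from 4 samples. P-values therefore measure the spread between the arrays of a group, which may be technical.

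In the textbook account, eIF1, eIF1A and the large eIF3 complex load onto the small subunit together with eIF2, which carries the initiator tRNA and GTP. The cap-binding eIF4E, the scaffold eIF4G and the helicase eIF4A form eIF4F, which brings the mRNA, and the 4E-binding proteins compete with eIF4G for eIF4E. At the start codon eIF5 triggers GTP hydrolysis by eIF2, eIF5B joins the large subunit, and eIF2B reloads eIF2 with GTP. Stress kinases that phosphorylate eIF2 alpha block that reloading. HSC are known for low rates of protein synthesis, which these arrays did not measure.

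A level below is log2 of the processed signal minus the 75th percentile of its array, so 0 is a bright but common signal, and levels are compared only for the same probe between arrays. The second array of WT primary and of KO primary were dim: 41.9% and 35.4% of their spots were well above background, against 72.2% to 90.7% on the other 6 arrays. Their 75th percentile signals were 36.6 and 19.6, against 321 to 847 on the others. A given signal therefore has a higher level on a dim array, and a high level there need not be a high signal. Each array had 43379 non-control spots. Of the 123 probes, 100 and 59 were well above background on the WT primary arrays and 95 and 43 on KO primary. The counts were 114 and 113 on WT secondary and 117 and 104 on KO secondary. Tests took in the probes that both arrays of some group measured well above background. That held for 114 of the 123 probes, covering all 53 names, and for 32776 probes in all. Of the 114 probes, 53 passed through a secondary group alone, 61 through both kinds of recipient and 0 through a primary group alone. Any count or median over the 114, or over a class of them, therefore leans towards higher levels in secondary recipients. The 9 probes not tested were 2 of Eif2c3 and 1 each of Eif2ak3, Eif2s1, Eif2s2, Eif2s3x, Eif3s10, Eif3s8 and Eif4enif1, and 3 of the 123 were above background on no array. Against this, 39 probes were above background on all 8 arrays, and for the comparisons of 2 groups of arrays the values over these are given too, each array centred on its median over the 11684 probes of that kind. The WT arrays shared 1 of the 3 slides and the KO groups had 1 each, which means that a genotype difference cannot be told apart from a slide difference.

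The labelled cell type and genotype were looked at first. Of 12 HSC marker genes, 11 or 12 were well above background on the 6 brighter arrays and 7 on each dim one. Markers of other cells were above background there too. On the 6 brighter arrays these were 7 or 8 of 8 B cell genes, 7 or 8 of 8 T and NK cell genes and 12 to 15 of 15 granulocyte and monocyte genes. The counts therefore do not check the cell type. The 2 probes for Tcf3 did not separate the genotypes. A_51_P394471 read -2.75 and -4.04 in WT primary, -3.64 and 7.09 in KO primary, -4.46 and -0.89 in WT secondary, and -0.42 and -1.53 in KO secondary. A_52_P141662 read -1.62 and 5.13 in WT primary, -2.09 and 2.37 in KO primary, 1.07 and 1.28 in WT secondary, and 1.33 and -1.36 in KO secondary. WT and KO values overlapped for both probes, and since the labels do not say which part of the gene was deleted, these probes do not check the genotype.

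The initiation factor probes stood higher on the arrays of secondary recipients than on those of primary recipients, measured against all probes of the same array. On the WT primary arrays the median of the 114 probes lay -0.20 and 0.47 log2 units from the median of all tested probes, and on the KO primary arrays 0.39 and -0.36. On the WT secondary arrays it lay 2.21 and 2.51 above, and on the KO secondary arrays 1.49 and 1.56 above. The primary and secondary arrays did not overlap in this measure. The 39 probes above background on all 8 arrays gave -0.12, 0.35, -0.25 and -0.30 on the primary arrays, against the 11684 probes of that kind, and 2.03, 2.37, 1.67 and 1.92 on the secondary arrays. These too did not overlap between recipients.

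**Figure D1:**
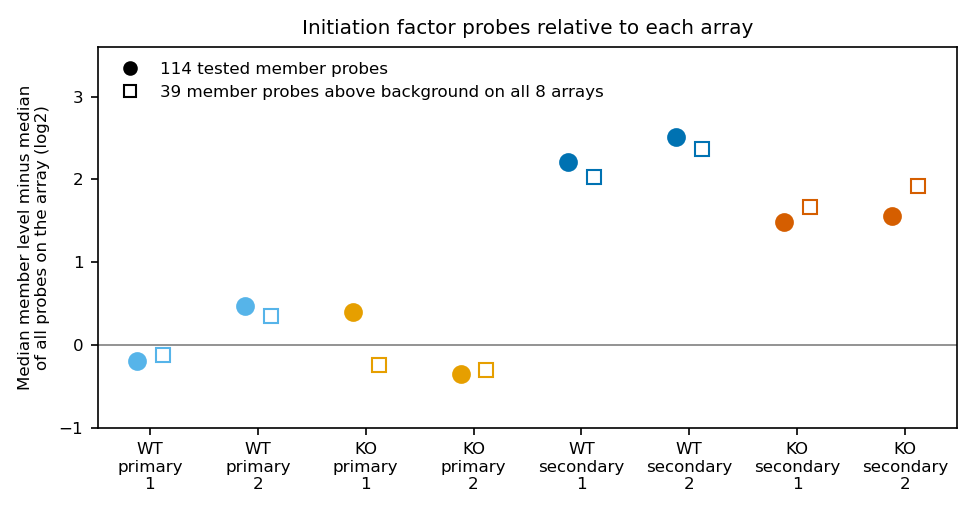
For each array (horizontal axis), the median level of initiation factor probes minus the median of all probes on that array (vertical axis, log2). Circles are the 114 tested probes (Argonautes included) against 32776, squares the 39 probes above background on all 8 arrays against 11684, and colours are the 4 groups. All 4 primary arrays lie between -0.36 and 0.47 and all 4 secondary arrays between 1.49 and 2.51.

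In the rest of the text a change is the difference of log2 group means minus the median difference of all tested probes, with its standard error (SE), and limma's p-values, adjusted by Benjamini-Hochberg over 32776 probes, test the difference before this subtraction. For secondary against primary recipients over both genotypes, all tested probes shifted by a median of -0.52. The 123 probes, tested or not, had a median change of 1.73, and 82.1% of them lay above the median of all probes. Among the 39 probes above background on every array, 35 lay above the median, with a median change of 1.62. Over the 114 tested probes 96 lay above, with a median change of 1.78, ranging from -3.22 to 7.97. The quartiles of all tested probes were -0.94 and 1.32. One probe passed the threshold of an adjusted p under 0.05, in Eif5b, where 0.314% of all tested probes (103) passed. At an unadjusted p under 0.05 there were 27 of 114, 26 of them higher and 1 lower, against 17.4% of all tested probes.

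Marker genes of granulocytes and monocytes moved the other way. Of 15 granulocyte and monocyte genes found, 14 lay below the median of all probes in secondary against primary recipients. S100a8, a neutrophil calcium-binding protein, and Retnlg, a neutrophil secreted protein, passed the threshold. The summed scaled signal of the 15 genes (1 being the 75th percentile of an array) was 254 and 11420 on the WT primary arrays and 236 and 15950 on KO primary. It was 20.5 and 11.5 on WT secondary and 17.0 and 36.1 on KO secondary. The sums of 11420 and 15950 are from the dim arrays, where the 75th percentile signals were 36.6 and 19.6, so a given signal counts for more there. Between 12 and 15 of the 15 genes were above background on each array. Of the other lists, 1 of 8 B cell genes lay above the median, 2 of 8 T and NK cell genes, 2 of 7 erythroid, 4 of 6 megakaryocyte and 1 of 3 mast cell and basophil genes, and none of these passed the threshold. Of the 12 HSC marker genes 8 lay above the median, and 1, Hlf, passed the threshold in the higher direction. The part of these differences in the initiation factor result was not tested. In sorted bulk cells, fewer cells of a type and less RNA per cell cannot be told apart.

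Within WT, where both kinds of recipient shared a slide, the recipient difference had the same direction. Of the 114 probes 88 lay above the median of all tested probes, with a median change of 2.24 around a shift of -0.75. Over the 39 probes above background on all arrays 30 lay above, with a lower median change of 1.03. None of the 32776 tested probes (0.0%) passed the threshold, and the lowest adjusted p was 0.292. At an unadjusted p under 0.05 there were 27 probes (25 higher, 2 lower), against 12.3% of all tested probes. After each array was centred on its median probe, the secondary arrays lay entirely above the primary arrays for 48 of 114 probes (42.1%), against 16.8% of all tested probes. They lay entirely below for 14 (12.3%), against 40.0% of all tested probes. Of the 39 probes 15 lay entirely above and 4 entirely below, against 14.1% and 35.8% of the 11684.

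Within KO, 88 of 114 probes again lay above the median, with a median change of 1.46 around a shift of -0.38. Over the 39 probes 30 lay above, with a median change of 1.5. KO primary and KO secondary arrays lay on different slides, so recipient and slide cannot be told apart within KO. None of the tested probes (0.0%) passed the threshold in limma's test, and the lowest adjusted p was 0.621. At an unadjusted p under 0.05 there were 18 probes (17 higher, 1 lower), against 6.23% of all. Secondary arrays lay entirely above primary arrays for 39 probes (34.2%), against 11.8% of all tested probes, and entirely below for 14 (12.3%), against 29.1%. Of the 39 probes 18 lay entirely above and 5 entirely below, against 11.8% and 26.3% of the 11684. Without the dim KO primary array the median change was 1.01 and 65.8% of the probes lay above the median. Over both genotypes, all 4 secondary arrays lay above all 4 primary arrays for 14 probes (12.3%), against 3.48% of all, and below for 4 (3.5%), against 13.2%. Of the 39 probes above background everywhere, 7 lay entirely above and 0 entirely below, against 2.78% and 8.93% of the 11684 probes of that kind. Without both dim arrays, a setting chosen after the data were seen, 26.3% of the 114 probes lay entirely above and 7.0% entirely below, against 9.0% and 21.0% of all tested probes.

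**Figure D2:**
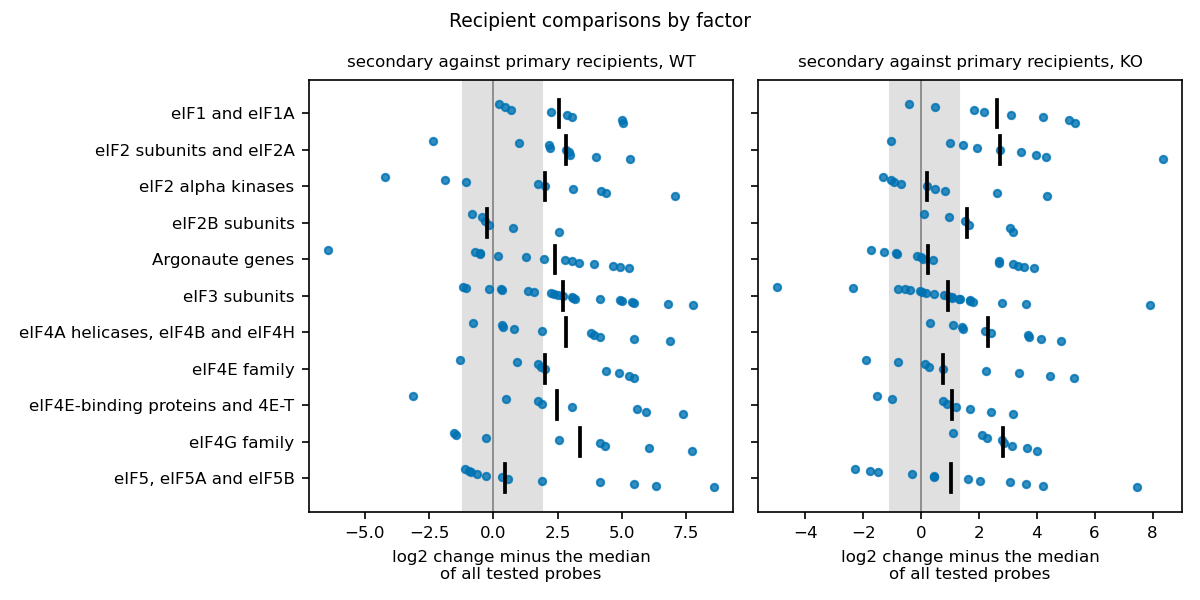
Change between secondary and primary recipients in WT (left) and KO cells (right) for the 114 tested probes, by factor. The horizontal axis is the log2 change minus the median of all tested probes, each point is a probe, black bars are class medians and the grey band runs between the quartiles of all tested probes. Class medians are above 0 for 10 of 11 classes in WT, with eIF2B at -0.23 the exception, and for all 11 in KO.

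eIF1 and eIF1A, which hold the scanning ribosome open and help it to find the start codon, were measured by 8 probes, all tested. All 8 lay above the median in WT recipients (median change 2.56, lowest 0.22) and 7 of 8 in KO recipients (2.64). The first Eif1 probe below, every Eif1a probe and the Eif1ay probe of highest mean passed the filter through secondary groups alone. These medians therefore lean towards higher levels in secondary recipients. Eif1 (A_51_P283837, chromosome 11) read 5.23 and -4.39 in WT primary, 4.85 and -3.47 in KO primary, 4.24 and 5.21 in WT secondary, and 4.48 and 4.58 in KO secondary. Both dim arrays stood far below the other 6, where the level was 4.24 or more. The second Eif1 probe, which the files place on chromosome 1, away from that site, was above background on all 8 arrays and had a change of 0.31 over both genotypes. Eif1b read 2.30 and 3.80 in WT primary, 2.13 and 1.21 in KO primary, 3.02 and 3.0 in WT secondary, and 3.10 and 3.83 in KO secondary. KO primary lay below the other groups, and the dim WT primary array lay among the secondary arrays in level. The signal on that array was 510.5, against 5704 or more on the secondary arrays. Eif1a, by its probe of highest mean (A_52_P618852, placed on chromosome 12), read 1.70 and -2.78 in WT primary, -0.60 and -3.19 in KO primary, 0.94 and 2.63 in WT secondary, and -0.24 and 1.90 in KO secondary. Another Eif1a probe (A_51_P277884, placed on chromosome 18, where the files put 2 of the 3) read -2.88 and -4.36 in WT primary, -1.63 and -2.88 in KO primary, 0.08 and 1.20 in WT secondary, and 1.24 and 3.72 in KO secondary. All secondary arrays lay above all primary arrays there, with a change of 5.02 (SE 0.85, adjusted p = 0.0681). Eif1ay, which the table of present names gives as the X-linked Eif1ax, read 2.49 and -4.22 in WT primary, -7.0 and -3.26 in KO primary, 0.76 and 0.49 in WT secondary, and -0.98 and 0.59 in KO secondary. The WT primary arrays alone differed by 6.71 log2 units, against 0.27 for WT secondary.

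eIF2 binds the initiator tRNA through its gamma subunit, and its alpha subunit is the target of the stress kinases. Its 12 probes (Eif2s1 alpha, Eif2s2 beta, Eif2s3x and Eif2s3y gamma, and the separate tRNA-binding protein Eif2a) gave 9 tested ones. Of these 8 lay above the median in each genotype, with median changes of 2.83 in WT and 2.73 in KO. Both Eif2a probes, the tested Eif2s1 probe, the Eif2s2 probe of highest mean, Eif2s3x A_52_P314042 and Eif2s3y passed the filter through secondary groups alone. These counts and medians therefore lean towards higher levels in secondary recipients. Eif2s1 read 2.95 and -3.92 in WT primary, 1.08 and -3.30 in KO primary, 1.96 and 3.53 in WT secondary, and 2.51 and -0.02 in KO secondary. The dim arrays were again the lowest, and the KO secondary arrays differed by 2.53 from each other. Eif2s2 read 1.69 and -2.51 in WT primary, 0.00 and -2.42 in KO primary, -1.60 and 1.28 in WT secondary, and -0.31 and -0.83 in KO secondary, with all groups overlapping. Eif2s3y, the Y-linked gamma subunit, was above background on 3 of 8 arrays, none of them from primary recipients. It read -7.37 and -4.28 in WT primary, -5.94 and -2.64 in KO primary, -5.96 and -1.29 in WT secondary, and -4.68 and -6.74 in KO secondary. Eif2a read -4.19 and -4.42 in WT primary, -3.39 and -3.45 in KO primary, 0.64 and -0.14 in WT secondary, and -1.23 and 1.61 in KO secondary. Secondary arrays lay above all primary ones, with a change of 4.61 (SE 0.82, adjusted p = 0.0806).

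Eif2s3x shows how far 2 probes of 1 transcript could part. The probe with the lowest p of the KO recipient comparison, A_52_P314042, and its neighbour A_51_P305532 follow each other on chromosome X with 0 bases between them (mm8, minus strand, chrX:90449015-90449074 and the exon pair within chrX:90443606-90449014). They are shown because adjoining stretches of 1 transcript gave different readings on the primary arrays.
A_52_P314042: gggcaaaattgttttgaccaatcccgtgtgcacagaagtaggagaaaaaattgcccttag
A_51_P305532: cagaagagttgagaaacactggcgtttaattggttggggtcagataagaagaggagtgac
A_52_P314042 read 1.62 and -2.76 in WT primary, -7.19 and -3.38 in KO primary, 0.73 and 2.62 in WT secondary, and 1.93 and 3.44 in KO secondary. None of the 2 KO primary arrays was above background, and the KO secondary arrays were at least 55.2-fold higher. That bound sets the mean of the bright group against the lowest signal that counted as well above background on each dim array, or the probe's own signal where that was higher. The measured KO means were -5.29 and 2.69, a change of 8.35 (SE 1.87, adjusted p = 0.621). A_51_P305532 read 2.63 and -0.60 in WT primary, -1.34 and 0.11 in KO primary, 1.56 and 3.29 in WT secondary, and 2.60 and 4.05 in KO secondary and was above background on all 8 arrays. Its change in KO recipients was 4.32 (adjusted p = 0.735). The Eif2s3x probe of highest mean, A_51_P256154, read 3.0 and 9.86 in WT primary, 3.86 and -1.76 in KO primary, 3.42 and 3.21 in WT secondary, and 3.43 and 1.76 in KO secondary. It was highest on the dim WT primary array and lowest on the dim KO primary array.

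eIF2B, the exchange factor that reloads eIF2 with GTP, was measured by 6 probes and had the lowest class median in WT. There 2 of 6 lay above the median (median change -0.23), against 6 of 6 in KO (1.60). None passed the threshold, nor did any pass it for the interaction. Eif2b1 read 2.53 and -0.38 in WT primary, -0.07 and 0.09 in KO primary, 0.27 and -0.54 in WT secondary, and 0.86 and -1.43 in KO secondary. Eif2b2 read -1.16 and -0.07 in WT primary, -1.22 and -2.55 in KO primary, -3.31 and -1.05 in WT secondary, and -0.69 and -0.53 in KO secondary. Over both genotypes neither separated the recipients, while within KO the secondary arrays of Eif2b2 lay above the primary ones. Eif2b4 read -0.30 and 0.76 in WT primary, -1.57 and -0.71 in KO primary, -2.66 and 1.0 in WT secondary, and 0.22 and 3.09 in KO secondary. Eif2b5, the catalytic subunit, read 0.35 and 1.45 in WT primary, -0.79 and -1.04 in KO primary, 0.02 and 1.78 in WT secondary, and 0.57 and -1.25 in KO secondary. Eif2b3 differed from these: it read -7.50 and -4.44 in WT primary, -4.5 and -3.47 in KO primary, -8.74 and -5.0 in WT secondary, and -2.20 and -0.37 in KO secondary. The signal was above background on 4 of 8 arrays, both KO secondary arrays among them.

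The eIF2 alpha kinases (Eif2ak1 or HRI, sensing haem, Eif2ak2 or PKR, sensing double-stranded RNA, Eif2ak3 or PERK, sensing stress of the endoplasmic reticulum, and Eif2ak4 or GCN2, sensing uncharged tRNA) did not move as one. Of 9 tested probes 6 lay above the median in WT and 5 in KO. The Eif2ak2 probe, every Eif2ak4 probe and Eif2ak1 A_52_P190921 passed the filter through secondary groups alone, which leans these counts towards higher levels there. Eif2ak2 came nearest to the threshold: it read -4.20 and -3.40 in WT primary, 0.40 and -2.71 in KO primary, 2.79 and 2.22 in WT secondary, and 2.55 and 3.09 in KO secondary. The 4 secondary arrays lay between 2.22 and 3.09 and the primary arrays at 0.40 or less, a change of 5.66 (SE 0.93, adjusted p = 0.0628). Eif2ak3 had the second lowest p among lower probes. It read 1.24 and -0.80 in WT primary, 0.37 and 3.07 in KO primary, -2.99 and -1.87 in WT secondary, and -1.51 and 1.58 in KO secondary, a change of -1.64 (SE 1.03, adjusted p = 0.31). Eif2ak1 read 2.36 and 9.34 in WT primary, 2.36 and -1.52 in KO primary, 0.52 and 1.27 in WT secondary, and 1.47 and 0.29 in KO secondary, with 9.34 on the dim WT primary array standing far above its other values. Eif2ak4, by its probe of highest mean, read -3.58 and -2.93 in WT primary, -1.80 and -2.26 in KO primary, -1.43 and -0.36 in WT secondary, and -3.10 and -3.60 in KO secondary. WT secondary arrays lay above KO secondary arrays. The dim WT primary and KO primary arrays were not above background, so the place of the primary groups cannot be told.

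eIF3, the largest factor, holds the small subunit, the mRNA and eIF4G together, and 23 probes under 12 names measured it, of which 21 were tested. In WT recipients 18 of 21 lay above the median (median change 2.70, from -1.17 to 7.77) and on 12 of 21 probes the secondary arrays lay entirely above the primary ones, with 0 entirely below, against 16.8% and 40.0% of all tested probes. In KO recipients 15 of 21 lay above the median (median 0.94, from -4.96 to 7.91), with 4 entirely above and 2 entirely below, against 11.8% and 29.1% of all tested probes. Levels of the 12 probes of highest mean ran from -5.88 to 9.80 on the primary arrays and from -8.03 to 4.02 on the secondary arrays. Eif3s5 (Eif3f) had the widest spread: it read -5.81 and 9.80 in WT primary, -5.88 and -3.42 in KO primary, 3.76 and 3.42 in WT secondary, and 2.61 and 3.15 in KO secondary. The secondary arrays agreed within 1.15 log2 units and the WT primary pair differed by 15.61. This probe, like some others of eIF3, passed the filter through secondary groups alone. Eif3s7 (Eif3d) read 0.58 and 1.27 in WT primary, 1.69 and 0.13 in KO primary, 3.56 and 3.16 in WT secondary, and 3.12 and 1.56 in KO secondary and was above background throughout. Eif3s9 (Eif3b) read 2.91 and 6.90 in WT primary, 3.63 and 4.79 in KO primary, 3.16 and 3.05 in WT secondary, and 2.89 and 3.17 in KO secondary, with the dim primary arrays the highest in level. Its signal on the dim KO primary array, 543.5, was the lowest of the 8 arrays. The other Eif3s9 probe, A_52_P414692, was above background on all 8 arrays. It read -4.07 and 0.40 in WT primary, -1.96 and 2.24 in KO primary, 2.42 and 2.24 in WT secondary, and 2.86 and 2.29 in KO secondary. Eif3s8 (Eif3c) read -0.62 and 1.20 in WT primary, -0.06 and -0.42 in KO primary, 1.87 and 3.42 in WT secondary, and 2.92 and 3.11 in KO secondary. All secondary arrays lay above all primary arrays on that probe, with a change of 3.33 (SE 0.76, adjusted p = 0.181).

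Of the eIF4A helicases and their helpers eIF4B and eIF4H, 9 of 10 probes lay above the median in WT recipients (median change 2.84) and 10 of 10 in KO (2.33). Eif4a1, the main helicase, read 2.13 and 4.56 in WT primary, 2.10 and 2.03 in KO primary, 4.32 and 4.67 in WT secondary, and 3.85 and 3.95 in KO secondary. Every array was above background, and the dim WT primary array overlapped the secondary arrays in level. The signal on that array was 859.9, against 6646 or more on the secondary arrays. Eif4a2 read -0.30 and 2.67 in WT primary, 3.87 and -3.39 in KO primary, 4.5 and 3.94 in WT secondary, and 4.25 and 5.16 in KO secondary. On these levels all secondary arrays lay above all primary arrays, by 0.07 at the narrowest, but after centring each array on its median probe they overlapped. The change was 4.27 (SE 1.51, adjusted p = 0.275). Eif4a3, the helicase of the exon junction complex, read 8.51 on the dim WT primary array and between -2.33 and 3.34 on the other 7. Eif4h was above background on 0 of 4 primary arrays and on 4 of 4 secondary arrays, at least 6.33-fold higher there (means -4.96 and -0.73, adjusted p = 0.114).

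Eif4b, which stimulates eIF4A, had the lowest p of all 114 probes in WT recipients, on 1 of its 3 probes. The sequences of the other 2, which each cross a splice junction on chromosome 15 (mm8, plus strand, within chr15:101914062-101914568 and chr15:101923065-101923327), are shown because the 3 probes of 1 gene gave 3 patterns.
A_52_P390114: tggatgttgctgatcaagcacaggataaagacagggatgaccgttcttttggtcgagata
A_52_P269365: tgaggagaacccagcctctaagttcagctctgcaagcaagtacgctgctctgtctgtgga
A_51_P151271, the third, read -4.22 and -4.34 in WT primary, -2.04 and -3.45 in KO primary, 2.10 and 1.60 in WT secondary, and 1.39 and -0.24 in KO secondary. All secondary arrays lay above all primary ones, with a change of 6.88 in WT (SE 1.11, adjusted p = 0.292) and 5.25 over both genotypes (SE 0.87, adjusted p = 0.0665). This probe passed the filter through secondary groups alone. A_52_P269365 read 0.47 and 0.89 in WT primary, 0.10 and 0.48 in KO primary, 4.03 and 4.10 in WT secondary, and 2.96 and -0.34 in KO secondary. There the second KO secondary array lay below the primary arrays, and the change over both genotypes was 2.72 (adjusted p = 0.282). A_52_P390114 read -0.27 and 10.16 in WT primary, -2.03 and 11.37 in KO primary, 4.35 and 4.70 in WT secondary, and 4.30 and 4.89 in KO secondary. The bright primary arrays were the lowest and the dim primary arrays the highest of all, and the change was 0.27.

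The eIF4G scaffolds had the highest class median in both genotypes, 3.36 in WT (5 of 8 above the median) and 2.83 in KO (8 of 8). The 4 Eif4g2 probes passed the filter through secondary groups alone, which leans these medians towards higher levels there. The 3 probes below the median in WT were of Eif4g1 and Eif4g3, whose probes were above background on all 8 arrays. Eif4g1 read 2.61 and 6.45 in WT primary, 1.27 and 1.36 in KO primary, 3.44 and 3.55 in WT secondary, and 3.28 and 2.82 in KO secondary, highest in level on the dim WT primary array. Its signal there was 3208, against 9196 and 8520 on WT secondary and 6464 and 3036 on KO secondary. Its other probe, A_52_P237704, read -1.55 and -1.05 in WT primary, -0.73 and 0.09 in KO primary, 2.38 and 2.21 in WT secondary, and 1.45 and 2.72 in KO secondary. There the secondary arrays all lay above the primary arrays, with a change of 3.52 (SE 0.71, adjusted p = 0.127). Eif4g3 read 1.85 and 9.22 in WT primary, 1.37 and 1.40 in KO primary, 3.01 and 3.48 in WT secondary, and 3.64 and 4.63 in KO secondary, again with the dim WT primary array far above the rest. Eif4g2 (DAP5), an eIF4G relative that cannot bind eIF4E, had the second lowest p in WT recipients on A_51_P306066, which read -7.44 and -4.38 in WT primary, -2.28 and -3.38 in KO primary, 0.71 and 1.41 in WT secondary, and 0.04 and 1.53 in KO secondary. On 0 of 2 WT primary arrays was it above background, and WT secondary was at least 26.9-fold higher (means -5.91 and 1.06, adjusted p = 0.292). The other 3 Eif4g2 probes had changes of 2.57 to 6.04 in WT, with 6.04 on the probe of highest mean, which read -5.34 and 1.04 in WT primary, 1.38 and -3.39 in KO primary, 3.41 and 2.87 in WT secondary, and 2.71 and 0.26 in KO secondary. All 4 probes of the gene lay above the median in WT, and all 4 did in KO, by 1.11 to 4.0. That is the direction towards which the filter leans for them.

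The cap-binding eIF4E family (Eif4e, Eif4e2 and Eif4e3) had 8 of 9 probes above the median in WT (median 2.0) and 7 of 9 in KO (0.77). The Eif4e probe of highest mean, Eif4e3 A_51_P187842 and every Eif4e2 probe except that of highest mean passed the filter through secondary groups alone. These counts and medians therefore lean towards higher levels in secondary recipients. Eif4e, the main cap-binding protein, read -2.78 and -4.27 in WT primary, -2.67 and -2.02 in KO primary, 0.76 and 1.64 in WT secondary, and 0.33 and 1.01 in KO secondary. Every secondary array lay above every primary array, with a change of 4.40 (SE 0.77, adjusted p = 0.0769). Its second probe read -4.42 and -1.55 in WT primary, -1.30 and -0.35 in KO primary, 1.13 and 0.20 in WT secondary, and -0.13 and -3.83 in KO secondary, a change of 1.77. WT secondary lay above all primary arrays, and the second KO secondary array lay below 3 of the 4. Eif4e2 was lower in KO secondary than in KO primary recipients on its probe of highest mean, which read 0.33 and 1.5 in WT primary, 3.02 and 3.88 in KO primary, 0.90 and 1.29 in WT secondary, and 2.58 and -0.22 in KO secondary (change -1.89, SE 1.26, adjusted p = 0.753).

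The 4E-binding proteins, which block eIF4E until mTOR phosphorylates them, and the 4E transporter Eif4enif1 had 7 of 8 tested probes above the median in WT (median 2.47) and 6 of 8 in KO (1.06). Both Eif4ebp3 probes and Eif4enif1 A_52_P1115466 and A_51_P507817 passed the filter through secondary groups alone, which leans these medians towards higher levels there. Eif4ebp1 read 0.81 and 0.63 in WT primary, 0.30 and -1.12 in KO primary, 0.33 and 0.59 in WT secondary, and -0.45 and 1.26 in KO secondary. The KO secondary arrays spanned the WT values, and WT primary lay above WT secondary and KO primary. Its other probe, A_52_P283674, had the lowest p of all lower probes. It read -3.98 and -0.89 in WT primary, -4.33 and -1.42 in KO primary, -6.25 and -6.38 in WT secondary, and -4.58 and -4.97 in KO secondary, a change of -2.37 (SE 1.02, adjusted p = 0.261). On 0 of 2 WT secondary arrays was it above background, and WT primary was at least 12.8-fold higher in scaled level (means -2.44 and -6.31). The signals themselves were close, 20.3 and 19.8 on WT primary against 11.1 and 8.8 on WT secondary. All 4 lay near the lowest signal that counted as well above background, so that fold rests largely on the scaling of the arrays. Eif4ebp2 read -2.12 and -0.49 in WT primary, -1.86 and 1.74 in KO primary, -2.09 and 1.46 in WT secondary, and 0.27 and 3.65 in KO secondary. KO secondary lay above WT primary, and the other pairs of groups overlapped. Eif4ebp3 was measured by 2 probes that share 55 of their 60 bases, and they tracked each other. The first read -5.36 and -3.93 in WT primary, -3.05 and -3.33 in KO primary, 1.44 and -0.34 in WT secondary, and -0.08 and -5.23 in KO secondary. The second read -4.64 and -4.36 in WT primary, -5.05 and -1.91 in KO primary, 1.28 and -0.63 in WT secondary, and -0.17 and -6.06 in KO secondary. On both, the second KO secondary array lay more than 4 log2 units below the other 3 secondary arrays.

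The last class holds eIF5, eIF5B and eIF5A, the last a factor that carries the amino acid hypusine and also serves elongation and termination. Of its 12 probes 7 lay above the median in WT (median 0.44) and 8 in KO (1.04). The only initiation factor probe past the threshold in any comparison is among them. It lies in Eif5b, the GTPase that joins the large ribosomal subunit, on chromosome 1. Eif5b had 5 probes, and 4 of their sequences (mm8, plus strand, chr1:37963666-37963725, chr1:37963812-37963871, within chr1:37977687-37978617 and within chr1:37994813-37995669) are shown in that order, since the first and second lie 86 bases apart and gave different patterns.
A_52_P669331: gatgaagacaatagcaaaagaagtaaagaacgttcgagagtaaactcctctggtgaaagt
A_51_P172441: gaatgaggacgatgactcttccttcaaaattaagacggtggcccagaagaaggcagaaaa
A_51_P479659: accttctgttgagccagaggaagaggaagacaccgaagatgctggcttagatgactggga
A_52_P50009: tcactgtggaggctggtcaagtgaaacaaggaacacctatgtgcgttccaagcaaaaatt
A_52_P669331 read -7.43 and -3.98 in WT primary, -7.16 and -3.41 in KO primary, 1.46 and 2.77 in WT secondary, and 1.35 and 2.21 in KO secondary. It was above background on all 4 secondary arrays and on 0 of 4 primary arrays, so secondary recipients were at least 40.6-fold higher in the main setting (means 1.95 and -5.50). The probe thus passed the filter through secondary groups alone. The change was 7.97 (SE 1.11, adjusted p = 0.0467), 8.57 within WT and 7.45 within KO. The call was narrow. Leaving out any 1 of the 8 arrays gave an adjusted p of 0.0546 (second KO primary array) to 0.208 (second WT secondary array), with changes of 7.22 to 8.74, and the call was lost under 13 of 19 alternative settings. The size depended on the setting too, from 4.23 with another background correction (normexp, adjusted p = 0.11) to 9.53 without both dim arrays. The fold bound above therefore holds for the main setting only. A_51_P172441 read -2.55 and 0.59 in WT primary, -1.18 and 2.43 in KO primary, 2.03 and 2.82 in WT secondary, and 1.64 and 2.12 in KO secondary. All 8 arrays were above background, the second KO primary array lay among the secondary arrays in level, and the change was 2.85 (adjusted p = 0.308). The signal on that KO primary array was 106.1, against 1867 or more on the secondary arrays. A_51_P479659 read 1.31 and 0.99 in WT primary, 2.97 and 0.60 in KO primary, 1.87 and 2.70 in WT secondary, and 1.68 and 2.03 in KO secondary, a change of 1.13. Every secondary array lay above the WT primary arrays, while the first KO primary array was the highest of all. A_52_P50009 read 0.81 and 1.63 in WT primary, -0.15 and 1.43 in KO primary, -0.61 and -0.34 in WT secondary, and 0.76 and 0.65 in KO secondary, a change of -0.29. The fifth probe, A_51_P182443, near the gene's far end, did not follow recipients and is described with the genotypes.

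**Figure D3:**
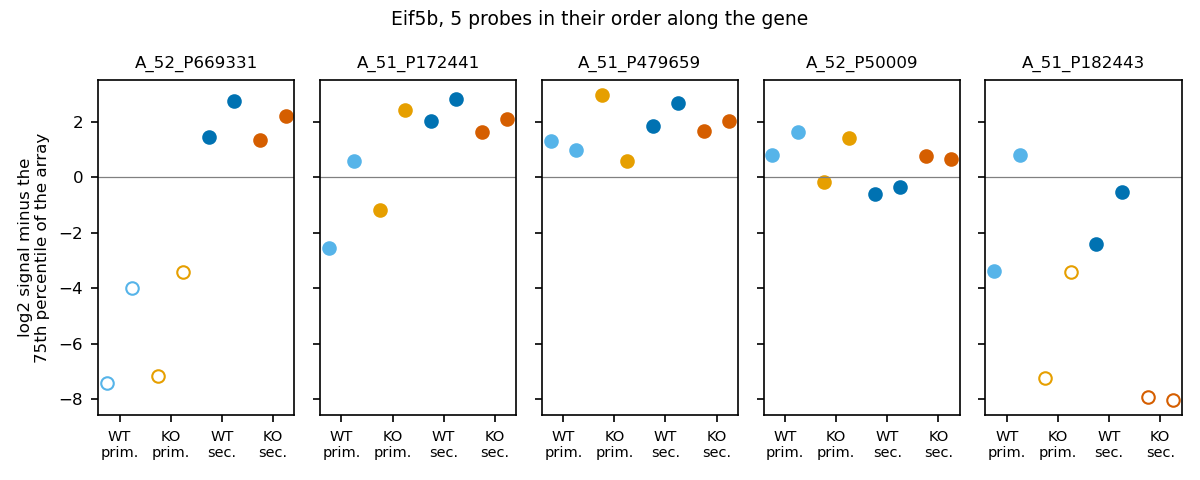
Levels of the 5 Eif5b probes on each array (vertical axis, log2 signal minus the 75th percentile of the array), in their order along the gene, with 2 arrays for each group on the horizontal axis. Filled points were well above background and open points were not. Only the first probe has all 4 primary arrays open, and only the last has all 4 KO arrays open.

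Eif5, the GTPase-activating protein of eIF2, read 0.13 and 2.81 in WT primary, -1.57 and -3.25 in KO primary, -0.49 and 1.34 in WT secondary, and -0.59 and 1.16 in KO secondary on its probe of highest mean. Both KO primary arrays lay below the other 6, and the WT groups overlapped. On its other 2 probes the change was 4.81 (SE 0.88, adjusted p = 0.0837) and 4.93 (SE 1.0, adjusted p = 0.113). Both of these passed the filter through secondary groups alone. Eif5a read 2.94 and 7.19 in WT primary, 4.14 and 5.78 in KO primary, 3.44 and 3.43 in WT secondary, and 3.43 and 2.76 in KO secondary. Its level was higher on the dim primary arrays and within 0.68 log2 units on the 4 secondary arrays. Its signal on the dim KO primary array, 1077, was the lowest of the 8 arrays. Eif5a2 read -0.73 and -0.17 in WT primary, -1.05 and -0.64 in KO primary, -2.07 and -1.62 in WT secondary, and -1.81 and -1.23 in KO secondary. All secondary arrays lay below all primary arrays, a change of -0.51 (adjusted p = 0.416).

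The 4 Argonaute genes were matched by their old names. Of their 14 tested probes 10 lay above the median in WT (median 2.38) and 8 in KO (0.24). Every Eif2c1 probe, among others, passed the filter through secondary groups alone, which leans these medians towards higher levels there. Leaving the Argonautes out, 86 of 100 initiation factor probes lay above the median over both genotypes, with a median change of 1.78. Eif2c2 (Ago2), the slicing Argonaute, read 2.01 and 2.25 in WT primary, 2.71 and 3.02 in KO primary, 0.65 and 1.11 in WT secondary, and 1.77 and 1.58 in KO secondary on its probe of highest mean, where the primary arrays were all higher. Eif2c4 (Ago4) had the lowest p of lower probes in WT recipients on A_52_P27117, described with the genotypes (change -6.42, SE 2.44, adjusted p = 0.369).

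**Figure D4:**
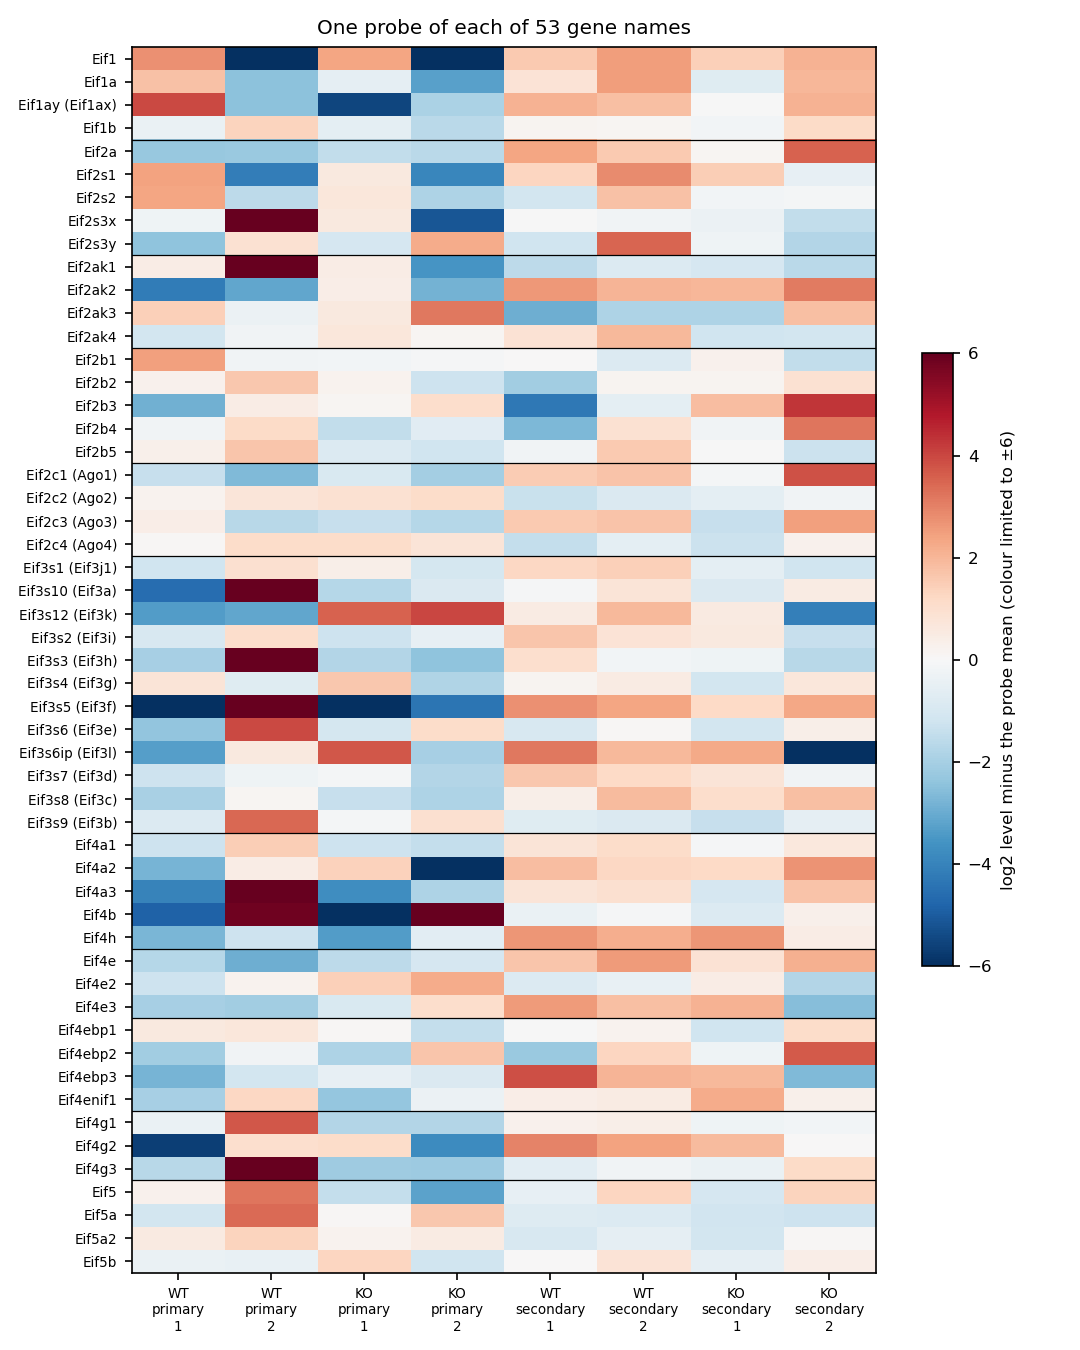
Levels of 1 probe for each of the 53 names (rows, the probe of highest mean over the 8 arrays, with lines between classes) on the 8 arrays (columns), after centring each array on its median tested probe and subtracting the probe's own mean (colour, log2, limited to 6 either side of 0). Most of the darkest red cells lie in the column of the dim WT primary array, dark blue cells are spread over the 4 primary columns, and the secondary columns are paler, with Eif3s6ip on the second KO secondary array an exception.

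The spread between the arrays of a group was large for these probes. The median absolute difference between the 2 arrays was 2.14 for WT primary, 1.70 for KO primary, 0.82 for WT secondary and 1.52 for KO secondary. Over all tested probes it was 1.68, 1.75, 0.91 and 1.35. On 29 of 114 probes the WT primary arrays differed by more than 4 log2 units, against 14.0% of all tested probes. A level above 8 was reached by 11 of 114 probes on the dim WT primary array, against 4.19% of all tested probes, and by 0 or 1 on each other array. That level takes less signal on a dim array. The 11 include Eif4b (10.16), Eif2s3x (9.86), Eif3s5 (9.80), Eif3s10 (9.58), Eif2ak1 (9.34), Eif2c4 (9.29) and Eif4g3 (9.22).

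The genotype comparisons, which the title of the series puts first, called no initiation factor gene. In primary recipients 49 of 114 probes lay above and 65 below the median of all tested probes, with a median change of -0.36 around a shift of 0.33. Over the 39 probes above background on all arrays 14 lay above, with a median of -0.57. In secondary recipients 24 lay above and 90 below, with a median change of -0.85 around a shift of 0.40, and over the 39 probes 9 lay above, with a median of -0.55. In secondary recipients all 21 eIF3 probes lay below the median of all probes (median -1.42, highest -0.01), as did 9 of 10 probes of the eIF4A, eIF4B and eIF4H class (median -1.02). Neither class had a probe past the threshold. KO and WT arrays lay on different slides in both comparisons, so a slide difference cannot be told apart from these values. The 21 eIF3 probes stand for 12 names. All tested probes spread less on the first KO secondary array (3.04 between quartiles) than on the other secondary arrays (4.19 to 4.45). Some eIF3 probes were very low on the second KO secondary array alone, such as Eif3s6ip (-8.03) and Eif3s10 A_52_P524895 (-7.27). The part of either array in these counts was not tested.

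In primary recipients 0 of 32776 probes passed the threshold (0.0%), and the lowest adjusted p was 0.999. At an unadjusted p under 0.05 there were 8 of 114 probes (2 higher in KO, 6 lower), against 3.7% of all. The KO arrays lay entirely above WT for 20 probes (17.5%) and entirely below for 17 (14.9%), against 14.5% and 10.1% of all tested probes. Of the 39 probes 5 lay entirely above and 10 entirely below, against 14.3% and 11.5% of the 11684. Without the brighter WT primary array, which leaves the dim one alone for its group, 591 probes passed the threshold, 6 of them initiation factor probes. Without both dim arrays the median change was 0.07. Eif3s12 (Eif3k, the smallest eIF3 subunit) had the lowest p among higher probes. It read -2.02 and -2.05 in WT primary, 4.87 and 5.42 in KO primary, 1.96 and 3.45 in WT secondary, and 2.41 and -2.80 in KO secondary. Both KO primary arrays lay above all other arrays. The WT primary values differed by 0.03, but the dim WT primary array was not above background, so this is not agreement of replicates. The change was 6.84 (SE 1.69, adjusted p = 0.999). Eif4e2 followed on A_52_P655578, which read -2.78 and -4.32 in WT primary, -0.82 and -0.96 in KO primary, -1.96 and -2.96 in WT secondary, and -1.28 and -1.01 in KO secondary, a change of 2.33 (SE 1.07, adjusted p = 0.999). The other 4 Eif4e2 probes had changes of -3.73 to 2.21.

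Eif2c4 (Ago4) had the lowest p among lower probes. A_52_P27117 read 3.43 and 9.29 in WT primary, -5.90 and -3.47 in KO primary, -0.89 and -0.72 in WT secondary, and -1.98 and -8.03 in KO secondary. It was above background on both WT primary arrays and 0 of 2 KO primary arrays, so WT primary was at least 705-fold higher (means 6.36 and -4.68, adjusted p = 0.999). The WT primary arrays themselves differed by 5.86 log2 units. The other 4 Eif2c4 probes had changes of -1.31 to 1.55 in that comparison. Eif5 on A_51_P244439, given above, came next (change -4.21, SE 1.41, adjusted p = 0.999), while its other 2 probes had changes of 1.08 and 2.49.

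In secondary recipients 0 of 32776 probes passed (0.0%), and the lowest adjusted p was 0.700 over all probes and 0.725 over the 114. At an unadjusted p under 0.05 there were 7 of 114 probes (3 higher, 4 lower), against 5.93% of all. The KO arrays lay entirely above WT for 9 probes (7.9%) and entirely below for 35 (30.7%), against 25.6% and 15.6% of all tested probes. Of the 39 probes 4 lay entirely above and 14 entirely below, against 25.0% and 16.7% of the 11684. Without the first KO secondary array 35.1% of the probes lay above the median in place of 21.1%. Eif4e2, a cap-binding relative of eIF4E that competes with it, had the lowest p among higher probes. A_52_P426072 read -7.46 and -4.41 in WT primary, -7.20 and -3.42 in KO primary, -7.75 and -8.22 in WT secondary, and -3.04 and 2.20 in KO secondary. It was above background on both KO secondary arrays and on none of the other 6, and KO secondary was at least 55.3-fold higher than WT secondary (means -0.42 and -7.98, adjusted p = 0.725). The 2 KO arrays differed by 5.24, and the other 4 Eif4e2 probes had changes of -0.98 to 0.95. Eif2b3, the gamma subunit of eIF2B, came next, with the values above: a change of 5.19 (SE 1.65, adjusted p = 0.725).

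Eif5b had the lowest p among lower probes, on A_51_P182443, which read -3.37 and 0.80 in WT primary, -7.24 and -3.42 in KO primary, -2.41 and -0.54 in WT secondary, and -7.92 and -8.03 in KO secondary. It was above background on both WT arrays and 0 of 2 KO arrays in secondary recipients, where WT was at least 22.7-fold higher (means -1.48 and -7.98, adjusted p = 0.725). In primary recipients it was again above background on 2 of 2 WT arrays and 0 of 2 KO arrays. The other 4 Eif5b probes had changes of -0.95 to 0.79 between genotypes in secondary recipients, so this difference was on 1 of 5 probes. Eif2ak4 followed on A_51_P408644, which read -4.07 and -4.33 in WT primary, -5.12 and -3.37 in KO primary, -0.65 and -0.87 in WT secondary, and -2.73 and -7.93 in KO secondary, a change of -4.97 (SE 1.70, adjusted p = 0.798). Its other 2 probes had changes of -2.85 and -1.88.

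**Figure D5:**
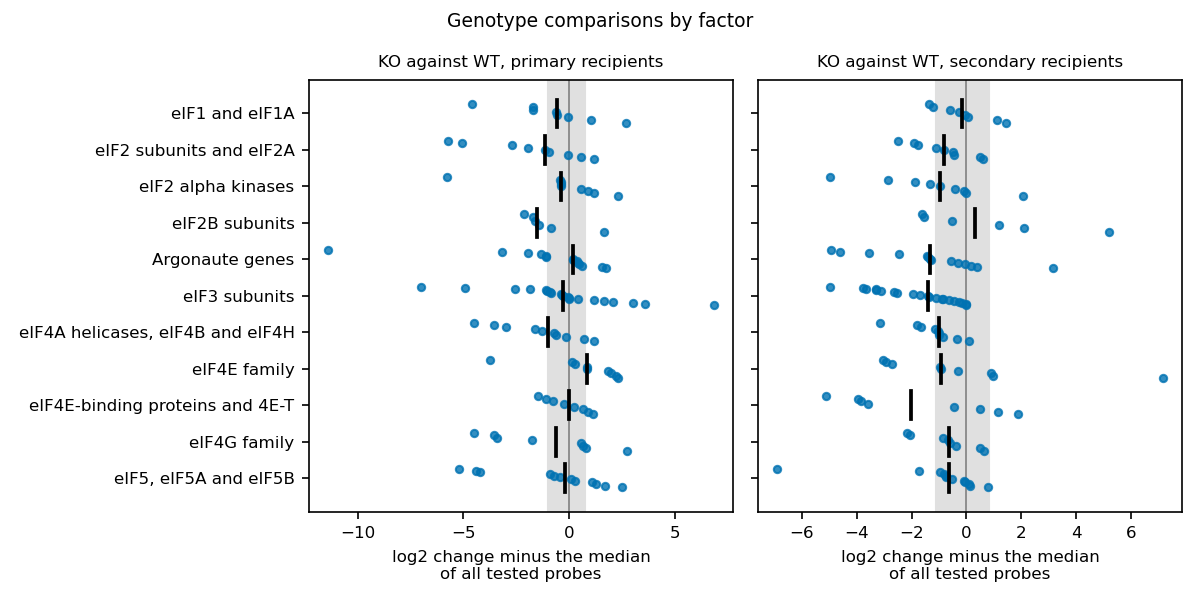
Change between KO and WT cells in primary (left) and secondary recipients (right) for the 114 tested probes, by factor, drawn as in the plot of recipient changes (horizontal axis in log2, grey band between the quartiles of all tested probes). In secondary recipients every eIF3 point lies below 0, and single probes of Eif2c4, Eif4e2 and Eif5b stand farthest out.

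Over both kinds of recipient, 0 of 32776 probes differed between genotypes past the threshold (0.0%), with a lowest adjusted p of 0.863. Of the 114 probes 32 lay above the median (median change -0.57, shift 0.31). Leaving out single arrays gave medians from -0.90 (without the first KO primary array) to -0.42. There were 5 probes at an unadjusted p under 0.05 (2 higher, 3 lower), against 4.63% of all. All KO arrays lay above all WT arrays for 1 probe (0.9%), against 0.702%, and below for 3 (2.6%), against 0.683%. Over the 39 probes 10 lay above the median (median -0.56), with 0 entirely above and 1 entirely below, against 0.984% and 0.805% of the 11684. The lower probes of lowest p were Eif5b A_51_P182443 (change -5.58, SE 1.27, WT at least 8.92-fold higher, adjusted p = 0.863) and Eif2c4 A_52_P27117 (-7.93, SE 2.0, adjusted p = 0.863). Higher ones were Eif2b3 (3.48, SE 1.26, adjusted p = 0.863) and Eif4e2 A_52_P655578 (1.68, SE 0.74, adjusted p = 0.863).

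The interaction, which tests whether the genotype difference changed with the recipient, was past the threshold for 0 probes (0.0%), with a lowest adjusted p of 0.995. At an unadjusted p under 0.05 there were 6 of 114 probes, 2 of them higher and 4 lower, against 3.92% of all. The median change was -0.61 and 50 of 114 lay above the median. That median depended on single arrays, from -0.93 without the second to -0.25 without the first KO primary array (also -0.25 without the first KO secondary array). It was 0.41 over the 39 probes above background on all arrays. The lowest p belonged to Eif3s12 (-10.27, SE 2.39, adjusted p = 0.995) and Eif3s8 A_51_P272005 (-6.26, SE 2.25, adjusted p = 0.995). Within KO, Eif3s12 also had the lowest p among lower probes between recipients (change -4.96, SE 1.69, adjusted p = 0.679), and its KO secondary arrays differed by 5.21 log2 units from each other. Eif3s8 A_51_P272005 read -4.53 and -2.14 in WT primary, 1.48 and -1.47 in KO primary, 3.71 and 3.67 in WT secondary, and 2.57 and -0.63 in KO secondary. On the higher side were Eif2c3 A_52_P126513 (4.10, SE 1.62, adjusted p = 0.995), and Eif4e2 A_52_P426072 (6.75, SE 2.93, adjusted p = 0.995).

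Other genes of the pathway were described by 1 probe each, in secondary against primary recipients over both genotypes, where 0 of 50 tested entries of 6 lists passed the threshold. Of 12 elongation and release factor genes 6 lay above the median (median change 0.14). The cap, poly(A) and helper proteins had 6 of 13 above (-0.17) and the entries signalling to initiation, from mTOR to S6 kinase, 6 of 11 (0.36). That last count and median take in Mtor, which lay above the median, under its old name Frap1 as well, on the same probe. The integrated stress response, the programme set off by eIF2 alpha phosphorylation, had 4 of 10 above (-0.23). Both enzymes that make hypusine on eIF5A, Dhps and Dohh, lay below the median (-1.19), and of the factors annotated under other names, eIF6 and eIF2D, 1 lay above. Beside these, 86 of 100 initiation factor probes, the Argonautes left out, lay above the median. The lists differ in length and in probes for each gene, and no difference between them was tested.

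The promoters of these genes were searched for hexamers that E47 is known to bind. RefSeq (GRCm38.p6) gave promoters, 250 bases before to 50 after the start, for 43 of the 53 genes. CAGCTG, which reads the same on both strands, was found in 3 genes (Ago4, Eif4e and Eif5b), and CAGGTG on either strand in 4 (Eif2ak3, Eif2ak4, Eif3c and Eif5b). Thus 6 of 43 genes (14.0%) held either hexamer, against 35.9% of 27025 genes in the same table. Their median GC content was 62.7%, against 52.8% for all. Eif5b held both hexamers, and its 250 bases before the start (plus strand, chr1:37997760-37998009) are shown with CAGCTG in capitals. Its CAGGTG match lies in the 50 bases after the start.
Eif5b: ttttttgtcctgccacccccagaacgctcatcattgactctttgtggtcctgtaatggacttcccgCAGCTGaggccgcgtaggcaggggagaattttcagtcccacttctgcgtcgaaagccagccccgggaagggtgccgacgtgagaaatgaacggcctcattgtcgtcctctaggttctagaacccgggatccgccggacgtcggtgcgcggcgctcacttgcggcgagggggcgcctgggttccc
A match is a description of the letters and not a site.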

How the data were processed

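Gene expression was measured on 8 one-colour Agilent arrays, 2 for each of 4 groups, with groups taken from the sample labels. The deposited scanner files hold spot intensities that Agilent Feature Extraction 10.5.1.1 had background-corrected and processed, per the file headers. The value table deposited beside them gives each probe as a ratio with a median of 1 on every array; it equalled the processed intensity divided by a constant and served as an alternative. Here outlier spots were left out, spots of a probe were averaged, and log2 processed signals were set to the 75th percentile of each array.

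Probes well above background on both arrays of 1 group or more were fitted with limma 3.58.1 in R 4.3.3 and tested two-sided, with Benjamini-Hochberg adjustment over all of them and a threshold of 0.05. The 4 pairwise comparisons and the interaction came from a fit of 4 groups (4 residual degrees of freedom), and the comparisons over 8 arrays from genotype plus recipient (5 residual degrees of freedom). The fit was tested on simulated data. The number of arrays limits the precision. Where probes of a gene disagree, others are given for some genes only. Unless a probe is named, the level of a gene is that of its probe of highest mean.

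Named genes were, for each comparison, the 2 probes of lowest p in each direction, and the probe of highest mean for the main factors; others were chosen after their values were seen. The genes, marker lists and pathway lists were chosen with earlier results of these data known. Present symbols came from RefSeq, by accession for 97 of 123 probes, by the same name for 25 and from the file for 1; 17 names had changed. Alternatives were other scalings, quantile normalization, a normexp background with an offset of 50, the series matrix, filters, 1 probe for each gene, array weights, the slide or replicate number as a block and each array left out.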

Additional observations from a re-analysis of the deposited data

How the results depend on the processing

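Calls in secondary against primary recipients over both genotypes depended on the setting, and the cause was not tested. The main setting called 103 probes and 1 initiation factor probe. Scaling to the median, no filter on dim probes, only probes above background on all arrays, 1 probe for each gene, leaving out both dim arrays and leaving out any 1 array (0 to 0) each called 0 probes and 0 initiation factor probes. The percentile of probes above background on all arrays called 864 and 14, quantile normalization 543 and 8, array weights 343 and 4, the slide as a random block 228 and 1, and a normexp background 1 and 0. The median change of the initiation factor probes in that comparison was 2.26 after quantile normalization and 1.40 with normexp.

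Within WT that median was 1.55 with normexp, 1.03 over probes above background on all arrays and 2.24 to 2.72 without single arrays. Within KO it was 1.93 after quantile normalization, 1.85 with 1 probe for each gene, 1.01 without both dim arrays and 1.01 to 2.15 without single arrays. Between genotypes in primary recipients it was -0.82 with 1 probe for each gene and 0.07 without both dim arrays, while leaving out single arrays called 0 to 591 probes and 0 to 6 initiation factor probes; the 591 and the 6 rest on the dim WT primary array alone, assumed to vary like the other groups. In secondary recipients 21.1% to 35.1% of the probes lay above the median without single arrays. For the interaction the median was 0.41 over probes above background on all arrays and 0.13 with 1 probe for each gene. The median thus changed sign for the interaction under both settings, from -0.61, and between genotypes in primary recipients without both dim arrays, from -0.36. Among the alternatives of these summaries, 513 kept the value within the limits used and 55 did not.

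The arrays of different groups share replicate numbers, but nothing ties same-numbered arrays to each other. With the replicate number as a block, 0 probes and 0 initiation factor probes were called over both genotypes, and the adjusted p of the Eif5b probe was 0.0535. The deviations of same-numbered arrays correlated by 0.15 between the primary groups and by -0.04 to 0.01 otherwise. On the dim arrays 59 and 43 of the 123 probes were above background, which limits the primary groups.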
